A study of Mus with 14 samples.

Results

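The cells described here are 236 of 70038 bone marrow cells (0.337%) that met a marker rule for mature monocytes and macrophages in a sort meant for progenitors. They were selected on their own UMI values (unique molecular identifiers, 1 per captured transcript). A cell entered with at least 1 UMI of Csf1r, at least 5 of S100a4 and at least 3 of Lgals3, with at most 1 of Elane, fewer than 10 of Camp and 0 of Siglech. Cells were considered from 1000 UMIs and 500 genes upwards if mitochondrial genes gave under 10% of their UMIs. They are called S100a4/Lgals3 monocytes here. The other Csf1r-positive cells with the same limits on Camp and Siglech, but no limit on Elane, numbered 12481 and serve as their comparison set.

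Monocytes arise in the marrow from granulocyte-monocyte progenitors, leave the neutrophil path, lose Kit and gain the receptor for colony-stimulating factor 1, encoded by Csf1r. Classical monocytes carry Ly6c2 and Ccr2, the receptor that lets them leave the marrow, and non-classical monocytes switch to Cx3cr1, Ace and Nr4a1 and patrol the vessel wall. Macrophages add scavenger receptors and complement C1q, while S100a4 and Lgals3 encode a calcium-binding protein and a galectin that rise as monocytes mature. Tumour necrosis factor alpha (TNF) acts on these cells through TNF receptor 1 (Tnfrsf1a) and TNF receptor 2 (Tnfrsf1b).

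The series asks how these 2 receptors bear on marrow cells mutant for Dnmt3a, a DNA methyltransferase gene often mutated in clonal hematopoiesis. Each of 14 libraries came from the marrow of 1 mouse, in 4 groups named by donor genotype: 3 MxCre mice, 4 Dnmt3a mice, 3 mice labelled Dnmt3a;Tnfr1KO and 4 labelled Dnmt3a;Tnfr2KO. In every group CD45.2+ donor marrow had competed with CD45.1+ marrow in aged, irradiated CD45.1+ hosts, poly(I:C) had been injected, and marrow had then passed into aged irradiated secondary hosts, from which Lin-Kit+CD45.2+ cells were sorted. Mx-Cre is a recombinase driven by an interferon-inducible promoter, so all groups, the MxCre control included, carried the poly(I:C) exposure. The labels give neither the Dnmt3a allele nor the deleted parts of the receptor genes, and they do not tie mice to primary hosts. Mice of a group may therefore share a donor, and p-values measure the spread between these mice. The last 2 groups are written Tnfr1KO-labelled and Tnfr2KO-labelled.

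The libraries held 62416022 to 162869740 UMIs in 3042 to 9724 barcodes. Kept cells numbered 1955 to 7745 per library, with median depths of 11275 to 39561 UMIs. The S100a4/Lgals3 monocytes were shallower, with a median of 7889.5 UMIs against 30605 in the other Csf1r-positive cells. Dnmt3a replicate 1 stood apart at this step, since 1955 of its 7257 barcodes were kept, and it gave 1 S100a4/Lgals3 monocyte. Dnmt3a replicate 4 had the lowest median depth, 11275 UMIs, and gave 77 of the 236 cells. Of 69438 distinct kept barcodes, 595 occurred in more than 1 library, and 1 S100a4/Lgals3 monocyte had a barcode that was also kept elsewhere. A doublet caller marked 14 of the 236 cells and 3143 of all 70038.

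A monocyte and macrophage identity held for most cells. Of its 5 marker genes the rule used Csf1r, S100a4 and Lgals3, so their levels are no finding, but Ccr2 and Lyz2 were not used. Lyz2, the lysozyme of phagocytes, was detected in 232 of 236 cells and Ccr2 in 204. The myeloid integrin gene Itgam had UMIs in 182 cells. Kit, on which the sort was made, had UMIs in 16 cells (6.78%), and Cd34 in 18. To compare cells of unlike depth, every cell was thinned to 3000 UMIs. Kit was then detected in 1.33% of the 226 cells deep enough, in 20.9% of the other Csf1r-positive cells and in 31.1% of 5116 Klf1-positive erythroid cells. Among those erythroid cells, which should lack monocyte transcripts, thinned detection was 8.93% for Lyz2, 0.469% for Ccr2 and 0.0195% for Fn1, against 96.0%, 81.9% and 61.9% in the S100a4/Lgals3 monocytes. Defining genes of T cells, B cells and neutrophils (Cd3e, Ms4a1 and Ly6g) had UMIs in 0 of 236 cells, which allows up to 1.27% of cells with a UMI for each. Other genes on the lists for these lineages were present. Ighm, the immunoglobulin heavy chain gene on the B cell list, had UMIs in 189 cells, and after thinning in 53.5% of these cells, 27.2% of the other Csf1r-positive cells and 0.801% of the erythroid cells, while Cd79a had UMIs in 8 cells. S100a8, a neutrophil calcium-binding protein also made by monocytes, had UMIs in 80 cells. Over the 7 libraries with at least 10 cells it ran from 0 through a median of 41.7 to 701 CPM (UMIs of a gene per 1000000 UMIs of the cells summed), highest in Dnmt3a replicate 4 and at most 101 CPM in the other 6. Among libraries with fewer cells Tnfr2KO-labelled replicate 3 reached 1537 CPM, from 45 UMIs in its 5 cells. The word mature does not cover all of them, since 47 cells formed a group led by cell cycle genes that is described further on.

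Cells on either side of the limits on S100a4 and Lgals3 were close in Lyz2 and apart in Ccr2. The 20 cells with 3 to 4 S100a4 UMIs that met all other terms had a median Lyz2 level of 10975 CPM, beside 11687 CPM in the 20 included cells with 5 to 6. Their median Ccr2 level was 108 CPM against 1411 CPM just inside. For Lgals3, 23 cells with 1 to 2 UMIs lay just outside and 28 with 3 to 4 just inside, at median Lyz2 levels of 7120 and 10224 CPM and median Ccr2 levels of 208 and 988 CPM. A further 56 cells just outside had 2 to 5 UMIs of the neutrophil elastase gene Elane. These were deep, at a median of 13880.5 UMIs, and had 16116 CPM of Lyz2 and 332 CPM of Prtn3, against 114 CPM of Prtn3 in the cells that entered. The largest set just outside was 148 cells that met all other terms but had no Csf1r UMI, with a median Lyz2 level of 324 CPM and a median Ccr2 level of 645 CPM. Only 2 cells were lost to Camp and 4 to Siglech.

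Levels are given as CPM of the UMIs summed over the S100a4/Lgals3 monocytes of a library, for the 7 libraries with at least 10 such cells. Beside each stands the mean of the other Csf1r-positive cells in these libraries. Because the rule chose the cells on their UMIs, these contrasts are descriptions with no test. Of 8362 genes measured, 4.63% were at least 2-fold higher in all 7 libraries and 1.29% at least 2-fold lower, with 10 CPM added to each value.

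Lysozyme dominated the programme. The lowest, median and highest Lyz2 levels were 9237, 13370 and 23775 CPM, against a mean of 394 CPM in the other Csf1r-positive cells. The lowest library was Dnmt3a replicate 3 and the highest MxCre replicate 2, and no library came near the other cells. Of the lysosome and cathepsin list, 14 of 20 measured genes were at least 2-fold higher in all 7 libraries. Ctss, a cathepsin that trims antigens for presentation, ran from 755 through 983 to 1447 CPM against 38.5 CPM. Psap, the precursor of the saposins that help to degrade lipids, ran from 1860 through 2409 to 3050 CPM against 169 CPM. Cybb, the catalytic subunit of the phagocyte oxidase, ran from 925 through 1086 to 1769 CPM against 56.8 CPM.

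Among receptors, 10 of 21 measured Fc and phagocytic receptor genes were higher by this measure. Tyrobp and Fcer1g, adaptors of activating receptors, had median levels of 2872 and 2362 CPM against 521 and 403 CPM. Itgam, Itgb2 and Sirpa, an integrin pair and the receptor for CD47, had 188, 275 and 227 CPM against 10.6, 16.1 and 29.8 CPM. Of the migration list 6 of 16 measured genes were higher, among them Ccr2 at 509, 890 and 1474 CPM (lowest, median and highest) against 81.4 CPM. The chemokine gene Ccl6 stood at a median of 644 CPM against 12.5 CPM. Cytokine receptors gave 5 of 15, with Csf2ra, the GM-CSF receptor chain, at 269 against 67.1 CPM and Il10ra at 82.4 against 4.47 CPM.

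Monocyte subset genes were mixed within the pooled cells. Of the classical monocyte list 4 of 10 measured genes were higher, namely Ccr2, Fn1, Ms4a4c and Ms4a6c. Fn1 ran from 267 through 1131 to 1823 CPM against 9.24 CPM in the other Csf1r-positive cells, lowest in Dnmt3a replicate 3. Ly6c2 was not among them, at 158, 1150 and 2158 CPM against 1002 CPM, and after thinning it was detected in 64.2% of these cells and 65.9% of the other Csf1r-positive cells. Of the non-classical list 6 of 12 were higher, with Cx3cr1, the fractalkine receptor, at a median of 225 against 16.8 CPM and Ace, angiotensin-converting enzyme, at 67.0 against 1.67 CPM. Of the macrophage list 5 of 10 measured genes were higher. Apoe, a lipid carrier, ran from 453 through 1231 to 2659 CPM against 80.7 CPM, while C1qa had UMIs in 25 cells only and Timd4, a receptor of resident macrophages, in 0.

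Antigen presentation was among the most uneven traits between libraries. The invariant chain gene Cd74 ran from 590 through 4227 to 6259 CPM against 47.9 CPM, and H2-Aa, a chain of MHC class II, from 205 through 1629 to 2426 CPM against 19.7 CPM. Tnfr1KO-labelled replicate 3 was the lowest and Tnfr1KO-labelled replicate 1 the highest for both, so mice of 1 group spanned the whole range. Of 7 measured MHC class II genes 4 were higher in all 7 libraries. Of the interferon list 6 of 25 were, led by Ifi27l2a at a median of 1765 against 14.9 CPM and Ifitm3 at 3200 against 282 CPM, both interferon-induced genes.

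The transcription factors Spi1 and Irf8, which guide the lineage from the progenitor on, had medians of 453 and 257 CPM against 237 and 281 CPM. Klf4, needed for monocyte formation, stood at 250 against 22.7 CPM, Cebpb at 731 against 123 CPM and Irf5 at 179 against 11.9 CPM. In all, 5 of 17 factors were higher in every library. Immediate early genes gave 9 of 18, with Fos at 584 against 86.2 CPM and Zfp36 at 248 against 32.6 CPM. These genes also respond to tissue handling, and handling was not measured here.

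In the S100, annexin and galectin list 5 of 14 measured genes were higher and 1, Anxa3, was lower. S100a6, which lies close to S100a4 in the genome, ran from 2092 through 2951 to 3692 CPM against 89.1 CPM. Progenitor genes went the other way, with 7 of 9 lower. The rule limited the progenitor list gene Elane and the comparison set had no such limit, so this contrast follows in part from the choice of cells. Mpo and Prtn3, granule enzymes of progenitors, had medians of 54.4 and 189 CPM against 5445 and 6187 CPM. Prtn3 was still detected in 38.1% of the thinned cells, beside 24.0% of the thinned erythroid cells. Of 18 S phase genes 2 were at least 2-fold lower in all 7 libraries, with a median log2 difference of -1.18 over the list against 0 over all genes. Of 18 G2 and M phase genes 0 passed in either direction, at a median of -0.09. Of these genes, Top2a was detected after thinning in 16.8% of these cells and 54.2% of the other Csf1r-positive cells, and Mki67 in 18.6% and 36.5%.

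**Figure D1:**
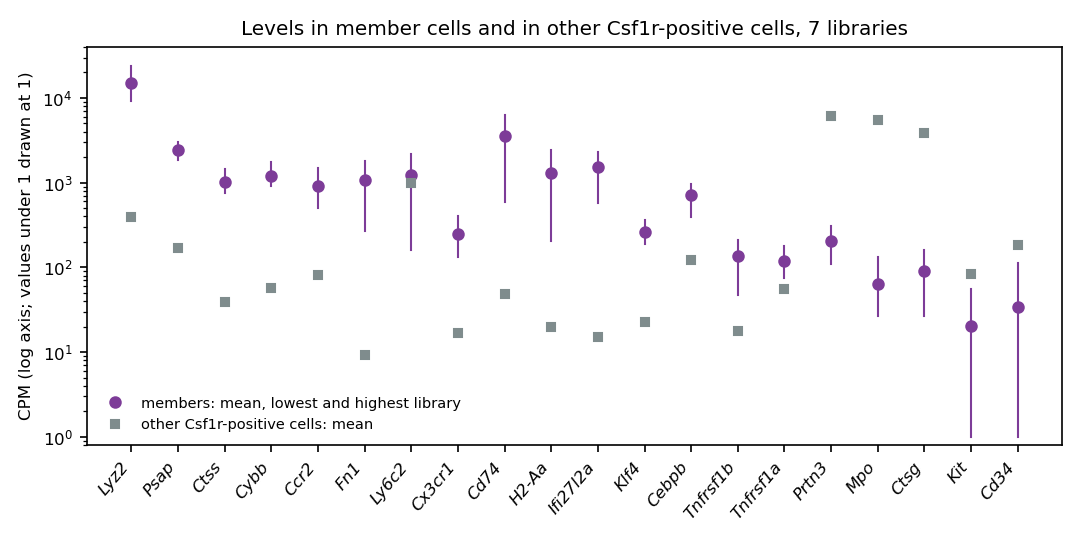
Levels of genes in S100a4/Lgals3 monocytes, in CPM on a log axis; circles mark the mean and bars the lowest to highest of 7 libraries, and squares the mean of the other Csf1r-positive cells. Lyz2 is the highest gene shown at 9237 to 23775 CPM, and MHC class II genes have wide bars.

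Both TNF receptors were detected above the level in erythroid cells. After thinning, Tnfrsf1b had UMIs in 26.5% of these cells and 1.08% of the erythroid cells, and Tnfrsf1a in 30.5% and 4.65%. Tnfrsf1b was detected in 139 of 236 cells and ran from 47.2 through 140 to 208 CPM, against 17.9 CPM in the other Csf1r-positive cells. Tnfrsf1a was detected in 150 cells and ran from 75.5 through 115 to 181 CPM against 55.6 CPM. Of 17 measured genes for the receptors and their proximal signalling, 2 were at least 2-fold higher in all 7 libraries, Tnfrsf1b and Ikbkb, a kinase that releases NF-kB. Of 25 measured NF-kB targets 2 were, Nfkbiz and Bcl3, both nuclear regulators of NF-kB. These are 11.8% and 8% of the 2 lists, beside 4.63% of all 8362 genes measured. The ligand gene Tnf had UMIs in 14 cells and a median of 3.71 CPM.

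The S100a4/Lgals3 monocytes were not of 1 kind. Leiden clustering of these cells alone gave 5 sub-clusters. A sub-cluster's leading genes come from the clustered cells and are listed as a description. Sub-cluster 0 (33 cells from 8 mice) was led by Fabp4, Ace, Eno3, Pglyrp1, S1pr5, Ear2 and Treml4 and is called non-classical monocyte-like. Ace stood at 606 CPM there and 15.2 CPM in the rest, and Ear2 at 782 against 41.7 CPM. Ly6c2, the classical marker, was at 67.4 CPM there against 647 to 2351 CPM in the other sub-clusters. These cells were shallow, at a median of 4371 UMIs.

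Sub-cluster 1 (56 cells from 13 mice) was led by MHC class II and C1q genes and stays unnamed. H2-Aa stood at 6352 CPM against 352 CPM in the rest, Cd74 at 15554 against 1078 CPM and C1qa at 1055 against 26.2 CPM. Over all 236 cells, 72 had at least 5 UMIs of H2-Aa, H2-Ab1 and H2-Eb1 together and 22 had at least 3 UMIs of C1q genes, with 12 cells in both sets. At a finer resolution of 1 the sub-cluster split into 20 cells led by C1qa, Folr2, Stab1, Pf4 and Lyve1, genes of resident macrophages, and 33 cells led by Cd209a, a marker of monocyte-derived dendritic cells, with Ifit3, H2-Aa and Clec10a. The dendritic markers Xcr1 and Ccr7 had 0 UMIs in all 236 cells, but the other 10 of the 12 conventional dendritic cell genes were detected. The list summed to 930 CPM in sub-cluster 1, against 128 to 316 CPM in the other sub-clusters.

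Sub-clusters 2 (71 cells) and 3 (29 cells) carried the classical monocyte genes. Their summed levels over the 10 classical monocyte genes were 10724 and 9888 CPM, against 1610 to 5148 CPM elsewhere. Sub-cluster 2 was led by Chil1, Chil3, Cd177 and Vcan, with Chil3, a chitinase-like protein of young monocytes, at 2008 against 425 CPM. Chil1 and Mmp8, both among its leading genes, are on the neutrophil list. That list summed to 899 CPM there, to 209, 227 and 562 CPM in sub-clusters 0, 1 and 3 and to 918 CPM in sub-cluster 4. Sub-cluster 2 had cells from 10 mice, and Dnmt3a replicate 4 gave 33 of the 71. Sub-cluster 3 was led by Ccr1 and Hist1h2bc, and Fn1, encoding fibronectin, was highest there at 2037 CPM. Neither is given a name of its own, since few of their leading genes are listed markers.

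Sub-cluster 4 (47 cells from 12 mice) was led by cell cycle genes, among them Hist1h1b, Top2a, Nusap1 and Mki67, and the 18 G2 and M phase genes summed to 4699 CPM against 92.4 to 616 CPM elsewhere. Its cells were deep, at a median of 16536 UMIs, and held 11 of the 14 doublet calls. At resolution 1 it split into 24 cells of a cluster led by Ube2c, Nusap1 and other mitotic genes, with 1 doublet call, and 23 cells that fell in a cluster of 25 led by Hbb-bs, Hbb-bt, Ctla2a, Adgrl4 and Cd34, globin and stem or progenitor genes, with 11 doublet calls. Erythroid genes summed to 7908 CPM in sub-cluster 4 and to 5074 CPM in sub-cluster 0, against 163 to 363 CPM in the other sub-clusters. At resolution 1, Hbb-bs stood at 8757 CPM in the globin-led cluster against 164 CPM in all other cells. That cluster held 1 cell of sub-cluster 0. The other 32 cells of sub-cluster 0 were among those with the pooled 164 CPM, so the value of sub-cluster 0 need not hold for them. The erythroid transcription factor gene Klf1 had 0 UMIs in all 236 cells, and the sum was mostly that of the globin genes. It was uneven between mice, with Hbb-bs at 9149 CPM in MxCre replicate 1, 7335 CPM in Tnfr1KO-labelled replicate 3 and 0 to 304 CPM in the other 12 libraries. The part of globin RNA or of doublets in this sub-cluster was not tested.

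**Figure D2:**
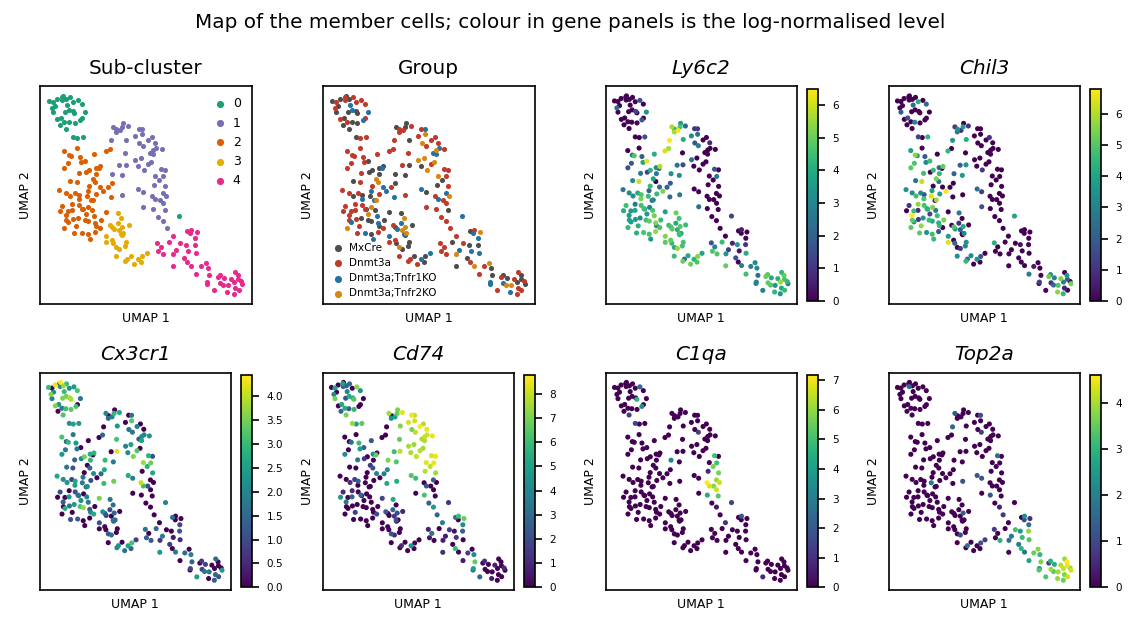
UMAP of the 236 S100a4/Lgals3 monocytes, coloured by sub-cluster, by genotype group and by the log-normalised level of 6 genes; each point is a cell and the axes have no unit. Sub-clusters 0 and 4 lie at opposite ends, except for 1 cell of sub-cluster 0 that lies beside sub-cluster 4, with Cx3cr1 high in the former and Top2a in the latter.

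The sub-cluster make-up of the groups is given as counts, with no test, because sub-clusters were made from these cells. The non-classical monocyte-like cells were 15 of 72 in MxCre (20.8%, 95% exact binomial interval 12.2 to 32.0%), 13 of 99 in Dnmt3a (13.1%), 5 of 39 Tnfr1KO-labelled (12.8%) and 0 of 26 Tnfr2KO-labelled cells, which allows up to 11.5% by 3 counts and 13.2% by the exact interval. Ace, Treml4, Ear2 and Adgre4 are leading genes of sub-cluster 0, so their counts are no separate check. At least 2 UMIs of these 4 genes were found in 27 of 72, 35 of 99, 11 of 39 and 1 of 26 cells. Of these 74 cells, 24 also had at least 3 Ly6c2 UMIs. All 12 non-classical list genes summed to 444 to 969 CPM in the Tnfr2KO-labelled libraries. The sums were 1332 to 1711 CPM in MxCre, 485 to 1736 CPM in Dnmt3a and 813 to 1193 CPM in the Tnfr1KO-labelled group. Cd209a, 1 gene of the dendritic list, had UMIs in 3 of 72, 12 of 99, 5 of 39 and 8 of 26 cells. By mouse these were 2, 0 and 1 cells in MxCre and 2, 3, 0 and 3 cells in the Tnfr2KO-labelled group. At least 5 UMIs of MHC class II genes were found in 20 of 72, 29 of 99, 14 of 39 and 9 of 26 cells. In the same order of groups, the 12 dendritic list genes summed to 121 to 290, 167 to 1181, 248 to 651 and 68.3 to 750 CPM. In MxCre the set of 4 non-classical genes was found in 17, 4 and 6 cells of replicates 1 to 3, and in the Tnfr2KO-labelled group the 1 cell came from replicate 2. Within Dnmt3a, replicate 3 had 9 of its 17 cells in sub-cluster 1 and 0 in sub-clusters 2 and 3, while replicate 4 had 33 of 77 in sub-cluster 2. Intervals cover counting error only, and cells of 1 mouse are not replicates.

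**Figure D3:**
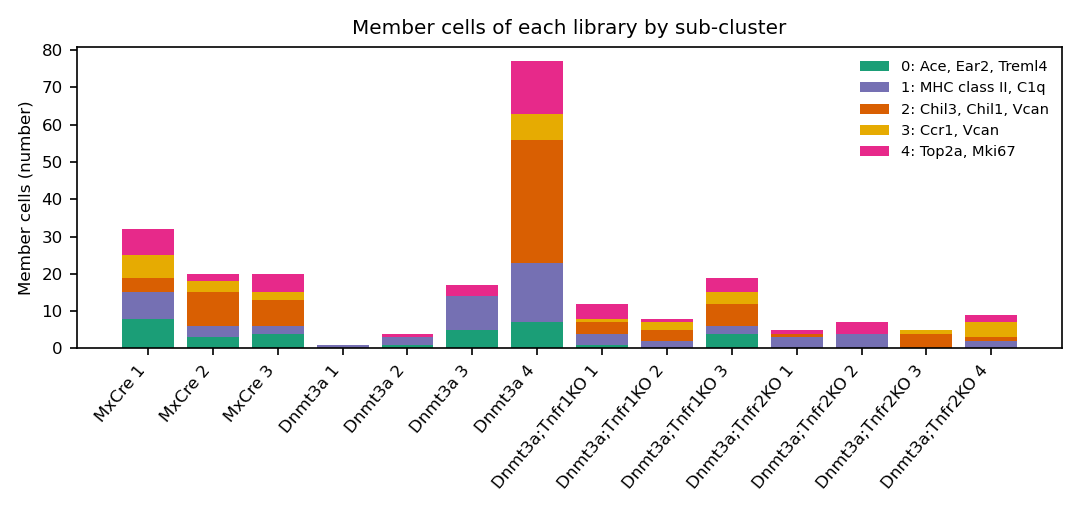
Number of S100a4/Lgals3 monocytes of each sub-cluster in each library, stacked. Dnmt3a replicate 4 is the tallest bar with 77 cells, and the 4 Tnfr2KO-labelled bars hold 5 to 9 cells with 0 in sub-cluster 0.

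The targeted genes were checked in all libraries before groups were compared. In the S100a4/Lgals3 monocytes Tnfrsf1b was at 60.0, 12.6, 34.2 and 119 CPM in Tnfr2KO-labelled replicates 1 to 4, from 2, 1, 1 and 8 UMIs. It was at 148, 208 and 140 CPM in MxCre, at 80.8, 0, 133 and 106 CPM in Dnmt3a and at 47.2, 85.6 and 162 CPM in the Tnfr1KO-labelled group. These ranges overlap at this depth. In the deeper other Csf1r-positive cells the Tnfr2KO-labelled libraries were apart, at 4.08 to 6.08 CPM against 11.9 to 21.7 CPM in the other 10. Tnfrsf1a was at 75.5, 74.9 and 103 CPM in the Tnfr1KO-labelled S100a4/Lgals3 monocytes and at 68.3 to 185 CPM elsewhere. In the other Csf1r-positive cells it was at 37.9 to 41.5 CPM against 43.2 to 71.9 CPM, lower but far from absent. A 3' tag outside a deleted part checks nothing, and the deleted parts are not given. Dnmt3a had 0 to 108 CPM in the S100a4/Lgals3 monocytes, and in the other Csf1r-positive cells it was at 27.6 to 37.7 CPM in the Dnmt3a group, 20.0 to 24.2 CPM in MxCre, 17.1 to 20.3 CPM in the Tnfr1KO-labelled and 19.0 to 22.3 CPM in the Tnfr2KO-labelled group. The receptor-mutant groups were thus near the MxCre level and below the Dnmt3a group. Every direction given for a group is therefore a direction for libraries with that label.

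How common these cells were differed widely between mice. As a share of kept cells they made up 0.518, 0.695 and 0.434% in MxCre replicates 1 to 3 and 0.0512, 0.145, 0.296 and 1.36% in Dnmt3a replicates 1 to 4. The Tnfr1KO-labelled replicates had 0.185, 0.217 and 0.599%, and the Tnfr2KO-labelled replicates 0.0646, 0.119, 0.0778 and 0.132%. The 3 MxCre and 4 Tnfr2KO-labelled values lie close together within their groups, whereas Dnmt3a spans both. Group means were 0.549% ± 0.134 (SD, n = 3), 0.462% ± 0.604 (n = 4), 0.334% ± 0.230 (n = 3) and 0.0983% ± 0.0322 (n = 4).

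With these numbers of mice no share difference could pass the threshold of 0.05 after adjustment over the 8 comparisons, so sizes and overlap are given. The smallest possible exact p is 0.0571 for 4 against 3 mice and 0.0286 for 4 against 4. The Tnfr2KO-labelled mice were lower than the Tnfr1KO-labelled mice by 0.235 percentage points with no overlap. The exact two-sided permutation p was 0.0571, and 0.229 after adjustment. The groups overlapped with cells thinned to 5000 UMIs, where Tnfr2KO-labelled mice reached 0.139% and Tnfr1KO-labelled mice began at 0.0985%, and with Elane up to 5 UMIs, at 0.206 and 0.200%. Thinning dropped cells under 5000 UMIs, which left 5077 of 6487 cells in Tnfr1KO-labelled replicate 1. Against Dnmt3a the Tnfr2KO-labelled mean was lower by 0.364 points (exact p = 0.257, adjusted 0.629). The difference between Dnmt3a and MxCre was -0.0870 points (exact p = 0.857, adjusted 0.971), and that between Tnfr1KO-labelled and Dnmt3a -0.128 points (exact p = 0.971, adjusted 0.971).

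Dnmt3a replicate 4 set the Dnmt3a values. It stood apart in other mature cells too, with 667 of 5680 kept cells at 10 or more Camp UMIs. Dnmt3a replicates 1 to 3 had 6, 10 and 35 such cells, and the other groups 27 to 249. Its cells with Siglech numbered 21, against 1 to 5 in every other library. Without Dnmt3a replicate 4 the Dnmt3a group was lower than MxCre by 0.385 points, with no overlap and an exact permutation p of 0.1, the smallest that 3 against 3 mice allow. Tnfr1KO-labelled mice were then above Dnmt3a, by 0.169 points (exact p = 0.4). The rule counts raw UMIs, so a shallow cell meets its lower limits less often and its upper limits more often. With cells thinned to 5000 UMIs and shallower cells dropped, the Dnmt3a mean was above MxCre by 0.138 points (exact p = 0.914). Dnmt3a replicate 4 then kept 3849 of 5680 cells, 70 of them S100a4/Lgals3 monocytes (1.82%). The MxCre libraries kept 5958 of 6177, 2701 of 2876 and 4347 of 4613 cells. The part of the dropped cells in this change of sign was not tested.

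Changes in other lineages can move a share of all cells, so the same cells were also set against Csf1r-positive myeloid cells alone. These made up 12.1% of kept cells in MxCre and 22.1, 21.2 and 18.3% in the other 3 groups. On this scale S100a4/Lgals3 monocytes were 3.78, 4.81 and 5.25% in MxCre, 0.172, 0.698, 1.31 and 8.88% in Dnmt3a, 0.848, 1.42 and 2.26% in the Tnfr1KO-labelled and 0.328, 0.626, 0.455 and 0.749% in the Tnfr2KO-labelled mice. The order of the means was unchanged, at 4.61% ± 0.753, 2.77% ± 4.10, 1.51% ± 0.713 and 0.539% ± 0.185. Of the 4 comparisons, the Tnfr2KO-labelled and Tnfr1KO-labelled groups again did not overlap, at a difference of -0.972 points (exact p = 0.0571, adjusted 0.229), but they overlapped under the same pair of alternatives. Tnfr2KO-labelled against Dnmt3a gave -2.23 points (exact p = 0.314) and Dnmt3a against MxCre -1.85 points (exact p = 0.629). Without Dnmt3a replicate 4 the latter became -3.89 points, with an exact p of 0.1.

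**Figure D4:**
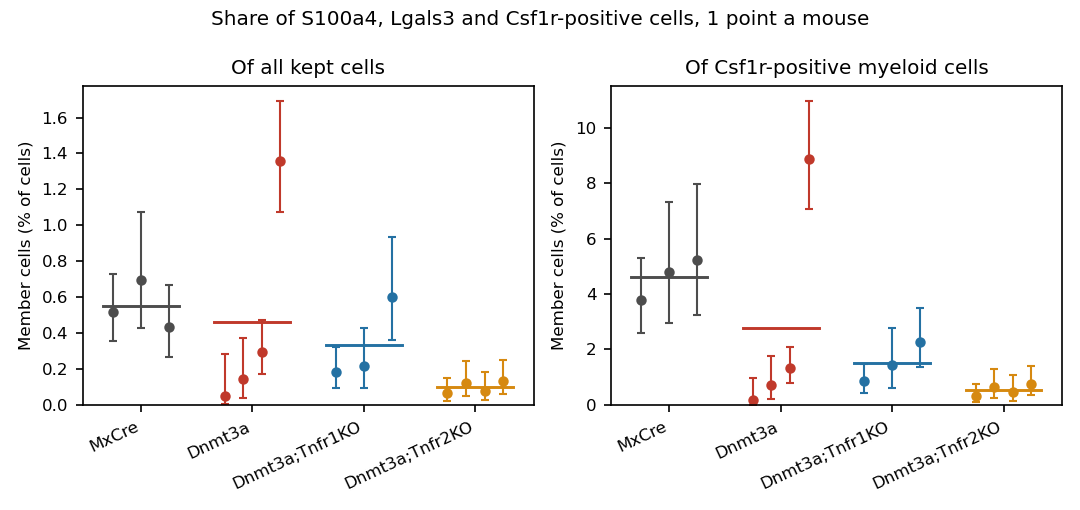
S100a4/Lgals3 monocytes as percent of kept cells and of Csf1r-positive myeloid cells; each point is a mouse, in order of replicate from left to right, with a 95% exact binomial interval, and horizontal lines mark group means. The 4 Tnfr2KO-labelled mice lie at 0.0646 to 0.132% of kept cells, below all 3 MxCre mice, and Dnmt3a replicate 4 is highest at 1.36%.

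Within the cells, few genes differed between Dnmt3a and MxCre. UMIs were summed per library and tested with edgeR's quasi-likelihood test over 3301 genes, in the 7 libraries with at least 10 S100a4/Lgals3 monocytes. These were MxCre replicates 1 to 3, Dnmt3a replicates 3 and 4 and Tnfr1KO-labelled replicates 1 and 3. At an adjusted p under 0.05, 6 genes (0.182%) were called, 5 lower and 1 higher in Dnmt3a. Of 232 tested genes on the 30 lists, 0 were called, while 236 of all 3301 genes had an unadjusted p under 0.05 and DESeq2 called 16. The 9 tested classical monocyte genes had a median log2 difference of -0.50, the 9 macrophage genes 1.58 and the 7 MHC class II genes 0.86, beside 0.02 over all genes. Markers of other cells moved with them, at medians of -3.34 for 5 erythroid, 1.08 for 4 neutrophil and 0.90 for 4 conventional dendritic cell genes, and their part in the result was not tested. Erythroid genes summed to 14899 CPM in MxCre replicate 1 and to 147 to 551 CPM in the other MxCre and Dnmt3a libraries of this fit. The 2 Dnmt3a libraries of this fit were unlike each other. The 18 macrophage genes summed to 1691 to 2037 CPM in MxCre, to 7536 CPM in Dnmt3a replicate 3 and to 1989 CPM in replicate 4, and the 10 classical genes to 5569 to 10534, 2192 and 7589 CPM. Replicate 4 thus lay within the MxCre range for both lists, and replicate 3, with 0 cells in sub-clusters 2 and 3, lay outside it.

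The lower genes were 4 of 80 ribosomal protein genes and a histone gene. Rps29, a protein of the small ribosomal subunit, was at 9126, 7706 and 7163 CPM in MxCre, at 2993 and 3058 CPM in Dnmt3a replicates 3 and 4 and at 8166 and 8442 CPM in Tnfr1KO-labelled replicates 1 and 3. The Dnmt3a libraries were thus below all others of this fit. The log2 fold change of Rps29 against MxCre was -1.43 ± 0.14 (SE; edgeR adjusted p = 0.00118), and this call held under 12 of 12 alternatives. Rps28 fell by 1.17 (adjusted p = 0.0125), Rps27 by 1.17 (adjusted p = 0.0125) and Rpl38 by 1.08 (adjusted p = 0.0488). The calls of Rps28 and Rps27 held under 9 of 12 alternatives and that of Rpl38 under 6 of 12. These tallies do not count the fit on libraries with at least 4 cells, which called fewer genes than the main fit. The median over the 80 ribosomal genes was -0.11, far from the values of these 4. Hist1h2ap, a replication-dependent histone H2A gene, was at 610, 214 and 263 CPM in MxCre and 33.3 and 58.1 CPM in Dnmt3a (log2 -2.89 ± 0.48, edgeR adjusted p = 0.0395), a call that held under 6 of 11 alternatives. Its UMIs lay mainly in sub-cluster 4. Ribosomal protein and histone genes have near-identical copies in the mouse genome, and how reads were split among copies is not given in the sources used here, so their levels are uncertain.

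The same genes were called in reverse between Tnfr1KO-labelled and Dnmt3a libraries, a comparison that shares the Dnmt3a libraries with the last. Of 3301 genes 7 (0.212%) were called, 6 higher and 1 lower, and of the 232 list genes 0. Medians were 3.90 for 5 erythroid, -1.43 for 4 neutrophil and -1.68 for 9 macrophage genes, beside -0.01 over all genes, with Hbb-bs at 7335 CPM in Tnfr1KO-labelled replicate 3, and their part in the result was not tested. Rps29 rose by 1.50 ± 0.15 (SE) on the log2 scale (adjusted p = 0.00136), Rps28 by 1.32, Rps27 by 1.16, Rpl38 by 1.24 and Hist1h2ap by 3.32. Of 10 alternatives, Rps29, Rps28 and Hist1h2ap were called in 9, Gm10076 in 7, Rps27 in 6 and Rpl38 in 4. Here too the fit on libraries with at least 4 cells, which called fewer genes, is not counted. Gm10076, a predicted gene on chromosome 14, was at 1397 and 581 CPM in the Tnfr1KO-labelled and at 133 and 143 CPM in the Dnmt3a libraries (log2 2.85 ± 0.44, adjusted p = 0.0179).

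The same shifts were seen outside the S100a4/Lgals3 monocytes, and they did not follow genotype throughout. In the other Csf1r-positive cells Rps29 was at 7205 to 9260 CPM in MxCre, 2684 to 3978 CPM in all 4 Dnmt3a libraries and 8139 to 9510 CPM in the Tnfr1KO-labelled libraries. In the Tnfr2KO-labelled libraries it was at 10257 and 8442 CPM in replicates 1 and 2 but at 5172 and 3335 CPM in replicates 3 and 4. The S100a4/Lgals3 monocytes of these 4 libraries had 9237, 7075, 5124 and 3644 CPM. Gm10076 and Hist1h2ap split the Tnfr2KO-labelled mice likewise, with Gm10076 at 2647, 757, 209 and 146 CPM and Hist1h2ap at 2092, 494, 71.6 and 59.2 CPM in their other Csf1r-positive cells. The difference between the 2 cell sets in the Dnmt3a effect was 0.16 for Rps29, 0.16 for Rps28, 0.07 for Rps27 and 0.20 for Rpl38 on the log2 scale, each with an edgeR adjusted p of 1. The labels give no processing batch, and the cause of the split was not tested.

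Acp5, the tartrate-resistant acid phosphatase of osteoclasts and some macrophages, was the gene called higher in Dnmt3a. It was at 29.7, 13.4 and 56.0 CPM in MxCre, at 208 and 363 CPM in Dnmt3a replicates 3 and 4 and at 18.9 and 21.4 CPM in the Tnfr1KO-labelled replicates 1 and 3. Its log2 fold change was 3.12 ± 0.40 against MxCre (edgeR adjusted p = 0.00854), and -3.79 ± 0.53 for Tnfr1KO-labelled against Dnmt3a (adjusted p = 0.0132). Few cells carried it. Of 351 Acp5 UMIs 288 lay in 3 cells and 211 in 1 cell of Dnmt3a replicate 4, and 39 of the 236 cells had any. In Dnmt3a replicate 4 it was at 1577 CPM in the 16 cells of sub-cluster 1 and 19.0 CPM in the other 61. In Dnmt3a replicate 3 it was at 172 CPM in the 9 cells of sub-cluster 1 and 250 CPM in the other 8. With the called doublets removed, the log2 fold change against MxCre was 0.04 (adjusted p = 1) and that of Tnfr1KO-labelled against Dnmt3a -0.94 (adjusted p = 0.891), so neither call held.

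**Figure D5:**
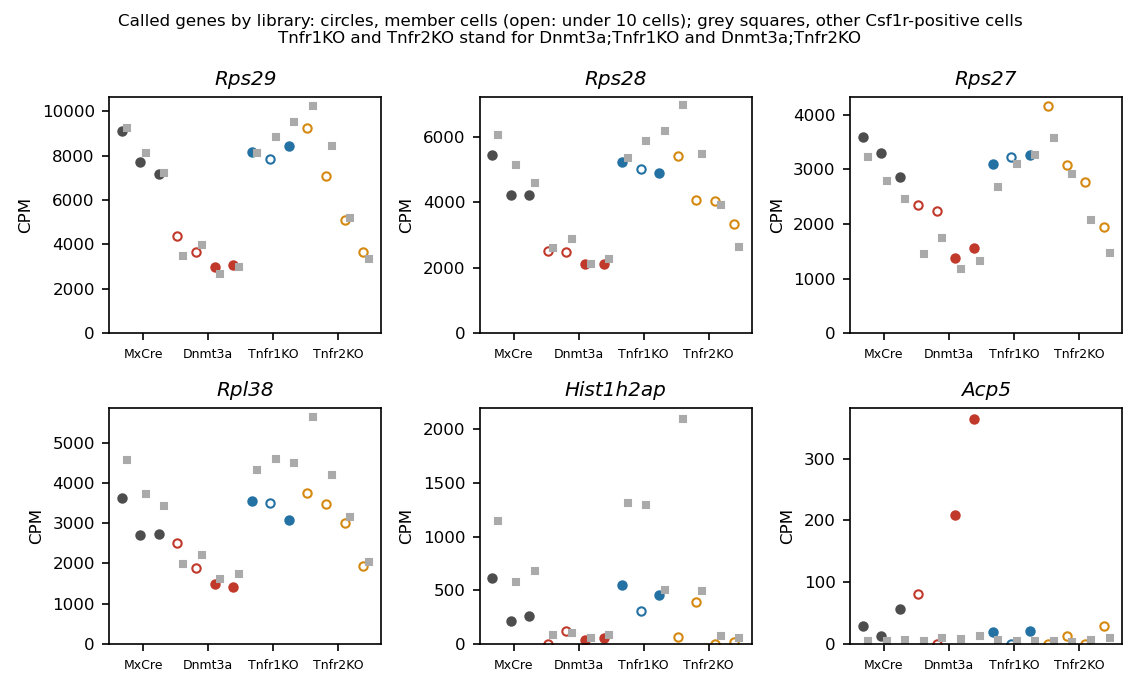
CPM per library of Rps29, Rps28, Rps27, Rpl38, Hist1h2ap and Acp5; circles are S100a4/Lgals3 monocytes (open where a library has fewer than 10 such cells) and grey squares the other Csf1r-positive cells. For the 4 ribosomal genes both cell sets are low in the Dnmt3a libraries, the Tnfr2KO-labelled libraries are spread out, and Acp5 reaches 363 CPM in Dnmt3a replicate 4.

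No Tnfr2KO-labelled library had 10 S100a4/Lgals3 monocytes, so this group was compared in the 13 libraries with at least 4, a choice made after the cell numbers were seen. Against Dnmt3a 0 of 2070 genes were called by edgeR (0%), with 145 at an unadjusted p under 0.05 and 7 called by DESeq2. Against the Tnfr1KO-labelled group 0 were called (0%), with 90 at an unadjusted p under 0.05 and 0 by DESeq2. Of the 183 list genes tested, 0 were called in either comparison. Against Dnmt3a, median log2 differences were 1.47 for 5 granulocyte-monocyte progenitor, -1.96 for 7 macrophage and -5.41 for 2 erythroid genes, beside -0.005 over all genes. Against the Tnfr1KO-labelled group the 2 erythroid genes had a median of -8.98. The part of these other cells in the results was not tested. Tnfrsf1b differed by -0.73 ± 0.67 against Dnmt3a (adjusted p = 0.912) and Tnfrsf1a by 0.01 ± 0.35 (adjusted p = 0.999). In the fit of 7 libraries neither receptor was called, with Tnfrsf1a at -0.30 ± 0.30 and Tnfrsf1b at -0.53 ± 0.38 for Dnmt3a against MxCre. Tnf and Dnmt3a did not pass the filter on low counts.

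Whether a genotype effect differed between S100a4/Lgals3 monocytes and the other Csf1r-positive cells of the same mice was tested as an interaction with the mouse as a block. For Dnmt3a against MxCre 29 of 11643 genes (0.249%) were called by edgeR, 18 with a more positive and 11 with a more negative effect in the S100a4/Lgals3 monocytes. With 1 log2 ratio a mouse, limma called 0, at a lowest adjusted p of 0.101 and 536 genes at an unadjusted p under 0.05. The calls by edgeR thus did not hold in the limma fit, although both fits account for the mouse. By limma the log2 difference was 3.67 for Nrp2, 1.99 for Hmox1 and -0.98 for Lyz2, beside 4.56, 2.14 and -0.97 by edgeR. For the globin genes Hba-a1 and Hbb-bt it was -0.46 and -1.63, beside -2.69 and -3.72. Of these 29 genes 4 were globin genes of the erythroid list, from -3.73 for Hba-a2 to -2.25 for Hbb-bs on the log2 scale. The classical list gave 2, Fn1 at -2.35 and Chil3 at -1.68, and Lyz2 was at -0.97. The CPM of the S100a4/Lgals3 monocytes overlapped between the groups for these 3 genes. Chil3 was at 471, 1414 and 548 CPM in MxCre and at 8.34 and 1069 CPM in Dnmt3a replicates 3 and 4. In the other Csf1r-positive cells it was at 7.97, 16.2 and 10.2 CPM against 1.21 and 52.9 CPM. The macrophage list gave 2, Hmox1 at 2.14 and Apoe at 1.20. Of other lineages, S100a8 of the neutrophil list was called at 2.18, with its 701 CPM in Dnmt3a replicate 4, and Pf4 of the megakaryocyte list at 1.83. Nrp2, a neuropilin receptor, was at 13.2, 20.1 and 0 CPM in MxCre and 592 and 77.9 CPM in Dnmt3a replicates 3 and 4, and its effect differed by 4.56 on the log2 scale. Ctsd, a lysosomal protease, was at 264, 194 and 280 CPM in MxCre and 1809 and 314 CPM in Dnmt3a, and Hmox1, which degrades heme, at 59.3, 67.0 and 56.0 CPM and 600 and 135 CPM. Dnmt3a replicate 3 was far above replicate 4 for these 3 genes. Few cells carried Nrp2, since 109 of its 160 UMIs lay in 3 cells.

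For Tnfr2KO-labelled against Dnmt3a, in libraries with at least 4 S100a4/Lgals3 monocytes, edgeR called 30 of 11467 genes (0.262%), 17 with a more positive and 13 with a more negative effect. Here too limma called 0, at a lowest adjusted p of 0.0913, with 984 genes at an unadjusted p under 0.05. The classical list genes Chil3 and Fn1 were called by edgeR at 2.69 and 2.24. The CPM of the S100a4/Lgals3 monocytes overlapped between the groups for both genes. Their means were 1055 and 568 CPM in the Tnfr2KO-labelled group and 359 and 597 CPM in Dnmt3a. In the other Csf1r-positive cells Chil3 was at 1.31, 1.89, 12.6 and 11.1 CPM against 0.404, 1.21 and 52.9 CPM. Wfdc21 and Lrg1 were called at 3.21 and 4.91, with 18 and 13 UMIs in Tnfr2KO-labelled replicate 3 and 0 in the other libraries of its group. Ccl6, a monocyte chemokine, was at 750, 806, 888 and 729 CPM in Tnfr2KO-labelled replicates 1 to 4 and at 370, 617 and 721 CPM in Dnmt3a replicates 2 to 4. These did not overlap, by the narrow gap of 729 and 721 CPM. In the other Csf1r-positive cells it was at 5.26, 5.04, 6.48 and 6.08 CPM against 6.06, 6.87 and 30.1 CPM. Its called difference thus also holds the high comparison cells of Dnmt3a replicate 4. Fabp5, a fatty acid carrier, was at 60.0, 50.4, 68.3 and 119 CPM against 185, 333 and 226 CPM. Prtn3 was at 750, 378, 615 and 387 CPM against 23.1, 108 and 189 CPM, levels far under the 4453 to 7207 CPM of the other Csf1r-positive cells of all 14 libraries.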

How the data were processed

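The authors deposited 14 matrices of whole-number UMI counts per gene and cell barcode, without normalization, per the file headers. The submitters' processing notes name Cell Ranger 6.0.0, bcl2fastq 2.20.0.422 and the builds mm10 and GRCm38. Each matrix lists 32285 genes. Gene positions come from RefSeq tables on GRCm38.p6. Cells were kept at 1000 UMIs, 500 genes and under 10% mitochondrial UMIs. The members, the gene lists and the tests were chosen with earlier results of these data known. Doublets were called by nearest neighbours (expected rate 0.8% per 1000 cells) and kept, with their removal as an alternative. Member cells were clustered with scanpy 1.11.5 (1500 variable genes, 20 components, 15 neighbours, Leiden resolution 0.5). UMIs were summed per library and tested with edgeR 4.0.16 in R 4.3.3 (TMM, filterByExpr, all groups in 1 fit, Benjamini-Hochberg adjustment within a comparison). The interaction fit had the mouse as a block. DESeq2 1.42.0 and limma 3.58.1 served as alternatives. Shares were compared by exact two-sided permutation tests with scipy 1.17.1, adjusted over 8 comparisons. The gene tests were also run on simulated counts with 1 fixed spread, a setting that does not cover the uneven libraries seen here.

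Named genes were Dnmt3a, Tnfrsf1a, Tnfrsf1b and Tnf, called list genes, and up to 12 called genes in each direction whose values did not overlap and whose mean reached 50 CPM in 1 of the groups. Levels name list genes and leading genes. Intervals are 95% exact binomial (Clopper-Pearson), and the floor for 0 is 3 counts. The labels do not say whether replicate numbers pair the mice. Deviations of same-numbered libraries correlated at -0.17 to 0.12 and those of other pairs at -0.15 to 0.17. This cannot settle the question, since deviations in a group of 2 libraries mirror each other. Libraries with under 10 member cells (or 4) were left out of gene tests. Intervals cover counting error only. Chosen after seeing the data were the limit of 4 cells, Elane up to 5 UMIs, removal of sub-cluster 4, the limma ratio and Leiden resolution 1.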

Additional observations from a re-analysis of the deposited data

Results flagged for a closer look

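Of 19 sets of 4 libraries, 2 had a value far from the others, where chance alone gives about 1 in 20. The share of S100a4/Lgals3 monocytes among Csf1r-positive myeloid cells was 8.88% in Dnmt3a replicate 4, a gap of 0.869 of the range of its group. Hist1h2ap was at 390 CPM in Tnfr2KO-labelled replicate 2 and at 0 to 60.0 CPM in the other 3 mice of its group.

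The effect of Dnmt3a against MxCre differed by edgeR's interaction test between S100a4/Lgals3 monocytes and the other Csf1r-positive cells for 12 named genes. The difference on the log2 scale was 4.56 for Nrp2, 4.36 for Lmna, 3.31 for Mgl2, 2.60 for Jdp2, 2.22 for Acp5 and 2.14 for Hmox1. It was 1.98 for Pltp, 1.72 for Mt1, 1.58 for Ifi27, 1.38 for Ctsd, 0.88 for Fth1 and -1.40 for AY036118. For Tnfr2KO-labelled against Dnmt3a it was 1.69 for Prtn3, 1.35 for Ccl6, -1.63 for Hist1h1b, -1.96 for Fabp5, -2.95 for Dtymk and -5.54 for Nrp2. With limma on 1 ratio a mouse 0 of these were called. Its log2 differences for the 12 genes, in the same order, were 3.67, 3.53, 2.74, 1.97, 2.44, 1.99, 2.29, 1.67, 1.67, 1.37, 0.86 and -1.34. For Tnfr2KO-labelled against Dnmt3a they were 2.45, 1.02, -3.85, -1.68, -2.59 and -3.85. Part of the UMIs sat in few cells. The 3 cells with the most held 288 of 351 UMIs of Acp5, 109 of 160 of Nrp2, 46 of 78 of Mgl2, 44 of 77 of Jdp2, 133 of 283 of Hmox1 and 68 of 149 of Lmna.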

How the results depend on the processing

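With so few mice no share difference could pass the threshold after adjustment, so only signs and sizes are compared. Dnmt3a minus MxCre, as percent of kept cells, became 0.138 with cells thinned to 5000 UMIs (shallower cells dropped) and 0.0470 with Elane up to 5 UMIs. Leaving out each replicate in turn, it ran from -0.385 to 0.0499, and for Csf1r-positive myeloid cells from -3.89 to -0.982. Tnfr1KO-labelled minus Dnmt3a ran from -0.265 to 0.169 and from -2.12 to 0.783, and turned positive without Dnmt3a replicate 4. Tnfr2KO-labelled minus Dnmt3a ran from -0.501 to -0.0659 and from -3.09 to -0.189. Tnfr2KO-labelled minus Tnfr1KO-labelled ran from -0.310 to -0.103 and from -1.30 to -0.595.

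The genes called for Dnmt3a against MxCre (6) and for Tnfr1KO-labelled against Dnmt3a (7) became 16 and 16 with DESeq2, 69 and 45 without the filter on low counts and 1 and 2 in libraries with at least 4 cells. The Tnfr1KO-labelled comparison gave 12 with doublets removed, and the MxCre comparison 12 without sub-cluster 4. Leaving out a replicate gave 2 to 30 and 4 to 17. The highest counts came without Dnmt3a replicate 4 (30 and 17), the lowest without MxCre replicate 3 (2) and without Tnfr1KO-labelled replicate 3 (4), and 13 were called without Tnfr1KO-labelled replicate 1. Leaving out a Dnmt3a or Tnfr1KO-labelled library leaves 1 in that group, which is then assumed to vary like the other groups. Against MxCre, calls were lost without MxCre replicate 1 (Acp5, Rpl38), MxCre replicate 3 (Rps27, Rps28, Rpl38, Hist1h2ap), Dnmt3a replicate 3 (the same 4) and Dnmt3a replicate 4 (Acp5, Rpl38, Hist1h2ap). For Tnfr1KO-labelled against Dnmt3a they were lost without Dnmt3a replicate 3 (Rps27, Rpl38), Dnmt3a replicate 4 (Acp5, Gm10076, Rpl38), Tnfr1KO-labelled replicate 1 (Rpl38) and replicate 3 (Acp5, Rps27, Rpl38). Whether the replicate numbers pair the mice is not known, and with a replicate block the counts were 8 and 2. With the block, Rps29 was called against MxCre (log2 -1.37), while Acp5, Rps28, Rps27, Rpl38 and Hist1h2ap were not, and none of the 7 genes named for Tnfr1KO-labelled against Dnmt3a was (Rps29 1.42, adjusted p = 0.0674). For Tnfr1KO-labelled against Dnmt3a, Tnfrsf1a became 0.13 with the replicate block and ran from -0.54 to 0.11 with a replicate left out. Tnfrsf1b became -0.0020 without TMM and -0.15 with doublets removed, and ran from -1.20 to 0.55 with a replicate left out. None of these passed the threshold.

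Tnfr2KO-labelled against Dnmt3a (0 genes) gave 7 with DESeq2, 45 without the filter and 0 to 3 with a replicate left out. Against the Tnfr1KO-labelled group it gave 17 without the filter and 0 to 1 with a replicate left out, and 0 in both with the replicate block. Genes with an effect that differed between cell sets (29 and 30) fell to 0 and 0 with limma on 1 ratio a mouse. They ran from 10 to 56 with a replicate left out for Dnmt3a against MxCre, lowest at 10 when MxCre replicate 1 was left out (16 for MxCre replicate 3) and highest at 56 when Dnmt3a replicate 4 was, and from 24 to 38 for Tnfr2KO-labelled against Dnmt3a. With at least 20 cells a library the interaction for Dnmt3a against MxCre gave 28 genes, from 1 Dnmt3a mouse, replicate 4, so this count says nothing about stability. The gene tests within the S100a4/Lgals3 monocytes were not run, since too few libraries remained. The small number of cells limits every gene test.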
